A study of Mus musculus with 16 samples.

Results

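The genes described here are 7 members of the interleukin-1 receptor family and its signalling adaptor: Il1rl1, Il18r1, Il18rap, Il1r1, Il1r2, Il1rap and Myd88. They were chosen by name, and all 7 were found among the 47643 Ensembl gene identifiers of both deposited tables. The study sorted 2 fractions of spleen CD4+ T cells from mice, a CD25- fraction (labelled naive, called CD4 here) and a CD25+ fraction (Treg), and asked how the genotypes TRaWT and TRaGS differ within each. TRaGS mice carry thyroid hormone receptor alpha whose binding to DNA is abrogated, and the TRaWT mice are their wild-type littermates. The labels name no treatment and no age. There were 4 animals per genotype and 1 library per fraction and animal, so 16 libraries in 4 groups of 4, and the animal number in the labels ties the CD4 and the Treg library of each of the 8 animals. The labels name no driver that limits the altered receptor to T cells. The choice of these genes was made with the Treg difference between genotypes already known, so their Treg values by genotype are a description and carry no test.

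IL-33, IL-18 and IL-1 are cytokines of one family that bind paired receptors on the cell surface. Each pair has a chain that binds the cytokine (ST2 from Il1rl1 for IL-33, the IL-18 receptor chain from Il18r1, and the IL-1 receptor from Il1r1) and a second chain that completes it (the accessory protein from Il1rap for ST2 and Il1r1, and that from Il18rap for Il18r1). The assembled pair recruits Myd88, and the kinases and ubiquitin ligases behind it activate NF-kB. Il1r2 encodes a decoy that binds IL-1 without signalling. ST2 is known as a surface marker of Treg in barrier tissues, where IL-33 promotes their growth, and the IL-18 receptor is known from Th1 cells and NK cells and is also found on some Treg.

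Of the 7 genes, 5 lie in a single cluster on chromosome 1, all on the plus strand (GRCm38, GENCODE release 21). In order these are Il1r2 (ENSMUSG00000026073, 40074079 to 40125231), Il1r1 (ENSMUSG00000026072, 40225080 to 40317257), Il1rl1 (ENSMUSG00000026069, 40429570 to 40465415), Il18r1 (ENSMUSG00000026070, 40465552 to 40500854) and Il18rap (ENSMUSG00000026068, 40515362 to 40551705). The cluster spans 478 kb. Il18r1 starts 136 bases after the annotated end of Il1rl1, and Il18rap starts 14.5 kb after the end of Il18r1. Il1rap (ENSMUSG00000022514) lies on chromosome 16 (26581704 to 26730117, plus strand) and Myd88 (ENSMUSG00000032508) on chromosome 9 (119335934 to 119341411, minus strand). Il1rl1 has 1 annotated transcript that starts at 40429570 and others that start at 40436589 or later, and annotated ends from 40441407 to 40465415. ST2 has a membrane form and a soluble form with a different 3′ end, and the deposited values, 1 per gene, do not separate them.

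The sequence before the starts of Il1rl1, Il18r1 and Il18rap is shown because these 3 adjacent genes were higher together in TRaGS Treg, and because the study altered a receptor that binds DNA. Promoter sequences came from RefSeq (GRCm38.p6) and matched all 7 genes. Each runs 5′ to 3′ on the plus strand and ends just before the RefSeq start, except that of the second start of Il1rl1, which ends 2 bases earlier, before an annotated exon. The positions are chr1:40429320-40429569 for the first start of Il1rl1, chr1:40439379-40439626 for its second start, chr1:40465416-40465551 for Il18r1 (the whole gap after Il1rl1) and chr1:40515112-40515361 for Il18rap. Capitals mark a match to AGATAA, a form of the motif of GATA factors, or to AGGTCA, the core site of thyroid hormone receptors. Other forms of the GATA motif were neither searched nor marked.
Il1rl1 first start: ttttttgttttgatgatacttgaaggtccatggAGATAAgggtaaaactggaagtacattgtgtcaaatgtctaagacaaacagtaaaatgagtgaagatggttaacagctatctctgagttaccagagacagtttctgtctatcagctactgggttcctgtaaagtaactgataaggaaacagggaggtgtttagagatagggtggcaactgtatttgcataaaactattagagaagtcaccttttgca
Il1rl1 second start: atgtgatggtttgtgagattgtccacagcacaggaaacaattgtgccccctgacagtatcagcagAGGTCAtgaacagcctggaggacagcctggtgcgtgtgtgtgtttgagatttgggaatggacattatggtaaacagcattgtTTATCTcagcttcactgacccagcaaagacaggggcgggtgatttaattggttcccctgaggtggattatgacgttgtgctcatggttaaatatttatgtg
Il18r1: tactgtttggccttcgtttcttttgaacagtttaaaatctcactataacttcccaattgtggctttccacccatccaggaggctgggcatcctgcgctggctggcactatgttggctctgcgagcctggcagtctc
Il18rap: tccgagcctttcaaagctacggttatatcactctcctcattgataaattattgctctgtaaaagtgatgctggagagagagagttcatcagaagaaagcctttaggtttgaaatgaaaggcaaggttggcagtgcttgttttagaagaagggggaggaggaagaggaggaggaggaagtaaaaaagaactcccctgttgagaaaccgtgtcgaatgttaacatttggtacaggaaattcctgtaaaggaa

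The first start of Il1rl1 has AGATAA, beginning 217 bases before it, and the second has AGGTCA at 185 bases and AGATAA on the other strand (read as TTATCT) at 103 bases, counted from the RefSeq start of each. These are short motifs: of 32851 RefSeq promoters searched over the 250 bases before the start, on both strands, 14.0% held AGGTCA and 9.99% held AGATAA. The direct repeat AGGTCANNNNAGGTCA, in which each copy also counts as a core site, was in 0.0152% of promoters and in none of the 7 genes' windows. The windows of Il18r1 and Il18rap held none of the motifs searched, which were these 3, the AP-1 motif TGANTCA (6.75% of promoters), the ETS motif CAGGAAG (10.8%), the T-box motif GGTGTGA (3.33%), the E-box CACGTG (6.02%) and the NF-kB motif GGGANNNNCC (17.6%). Elsewhere among the genes, the Il1r2 promoter held CACGTG at 238 and 195 bases before its RefSeq start, the Il1rap promoter held the NF-kB motif at 119 bases, and the Myd88 promoter held the T-box motif on the other strand at 151 bases. The windows of Il1r2 (chr1:40085843-40086092) and Myd88 (chr9:119340019-119340268) lie inside the gene spans given above, and that of Il1r2 overlaps annotated exons. Matches describe the letters in these windows and are not shown to be bound.

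The library kit reads the 3′ ends of messenger RNA, and libraries held 2679119 to 5095278 recovered reads in CD4 and 2912038 to 4154027 in Treg. Between 20.8% and 41.1% of reads fell on Gm42418, a gene over ribosomal RNA sequence. No replicate pair agreed within sampling noise (the lowest chi-square per degree of freedom was 7.67), and the CD4 library of TRaGS animal 2 stood furthest from its group (74.3 to 88.9 against the other 3, where those differed among themselves by 15.4 to 30.7). Foxp3, the defining factor of Treg, was at 893 to 1330 normalised counts in Treg libraries and at 43.1 to 170 in CD4 libraries, and Il2ra, which encodes CD25, was at 1009 to 1699 and at 65.8 to 139. The 3′ tags do not show the altered part of the receptor gene, so genotype labels could not be checked from it. The labels name each library a biological replicate with an animal number.

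In Treg, the 3 adjacent genes Il1rl1, Il18r1 and Il18rap were all higher in TRaGS than in TRaWT, without overlap between the genotypes, and the decoy gene Il1r2 was too. The mean of the adaptor gene Myd88 differed by less than its spread between animals. Of the 6 genes tested, 3 were past the threshold (limma on log2 of the normalised count plus 1, Benjamini-Hochberg adjusted p under 0.05), all higher in TRaGS, where 0.959% of the 11051 tested genes were past it in either direction, 0.733% higher and 0.226% lower (with edgeR and DESeq2, 0.814% and 1.25%, and again 3 of the genes). Of all tested genes, 5.07% were without overlap in either direction and 2.84% higher without overlap, and 9.12% had an unadjusted p under 0.05. The choice of genes used this contrast, so nothing is read from these counts. In bulk samples, fewer cells of a type and less RNA per cell cannot be told apart, and this holds for each difference below.

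Il1rl1 encodes ST2, the receptor chain for IL-33. Its normalised counts in TRaWT Treg were 154, 155, 106 and 45.8 in animals 1 to 4, and in TRaGS Treg 653, 677, 642 and 362. The lowest TRaGS library, animal 4, was still far above the highest TRaWT library. The group means were 115 ± 51.5 and 584 ± 148 (SD, n = 4), a ratio of 5.07 and a log2 difference of 2.44 ± 0.27 (SE). The recovered reads behind these values were 39 to 187 per TRaWT library and 333 to 936 per TRaGS library.

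Il18r1 encodes the chain that binds IL-18. It stood at 331, 203, 216 and 261 normalised counts in TRaWT Treg and at 473, 601, 439 and 525 in TRaGS Treg. All 4 TRaGS libraries were above all TRaWT libraries, and TRaWT animal 1 came nearest to the TRaGS range. The means were 253 ± 57.9 and 510 ± 70.7 (SD, n = 4), a ratio of 2.02 and a log2 difference of 1.03 ± 0.19 (SE).

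Il18rap encodes the second chain of the IL-18 receptor. Its normalised counts were 25.5, 5.03, 23.3 and 24.6 in TRaWT Treg and 115, 113, 91.5 and 136 in TRaGS Treg. Here 3 TRaWT libraries lay close together with animal 2 far below them, and the TRaGS libraries were all higher. The means were 19.6 ± 9.77 and 114 ± 18.2 (SD, n = 4), a ratio of 5.79 and a log2 difference of 2.68 ± 0.49 (SE). With TRaGS animals 1 and 2 alone against all TRaWT animals, the log2 difference was 2.69 but no longer past the threshold.

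Il1r2 encodes the decoy receptor for IL-1. It stood at 38.6, 0, 14.0 and 11.7 normalised counts in TRaWT Treg and at 47.3, 65.1, 46.8 and 51.1 in TRaGS Treg. The TRaGS libraries were even and the TRaWT libraries were not: animal 1 came close to the TRaGS range and animal 2 had no read. The means were 16.1 ± 16.2 and 52.6 ± 8.53 (SD, n = 4), with a log2 difference of 2.51 ± 0.76 (SE) that was not past the threshold. It was past it without TRaWT animal 1, at 3.21, and was 1.44 without TRaWT animal 2, the library with no read, 1.69 with DESeq2 and 1.68 with edgeR, none of these past it.

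Il1rap encodes the accessory chain shared by the receptors for IL-33 and IL-1. Its normalised counts in Treg were 11.5, 5.03, 2.33 and 52.8 in TRaWT and 27.4, 3.61, 15.6 and 25.0 in TRaGS. The genotypes overlapped throughout, and 1 TRaWT library was the highest of all 8. The means were 17.9 ± 23.6 and 17.9 ± 10.8 (SD, n = 4), and the log2 difference, 0.52 ± 0.88 (SE), was smaller than its error.

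Il1r1, the signalling receptor for IL-1, was near the limit of detection, with 29 reads over the 8 Treg libraries. It was at 8.22, 0, 0 and 18.8 normalised counts in TRaWT Treg and at 0, 0.723, 1.12 and 1.09 in TRaGS Treg, and was too low to be tested. Myd88 was at 89.6, 98.6, 136 and 90.4 normalised counts in TRaWT Treg and at 90.5, 114, 103 and 113 in TRaGS Treg. The TRaGS range lay within the TRaWT range, with means of 104 ± 22.2 and 105 ± 10.9 (SD, n = 4) and a log2 difference of 0.03 ± 0.30 (SE).

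**Figure D1:**
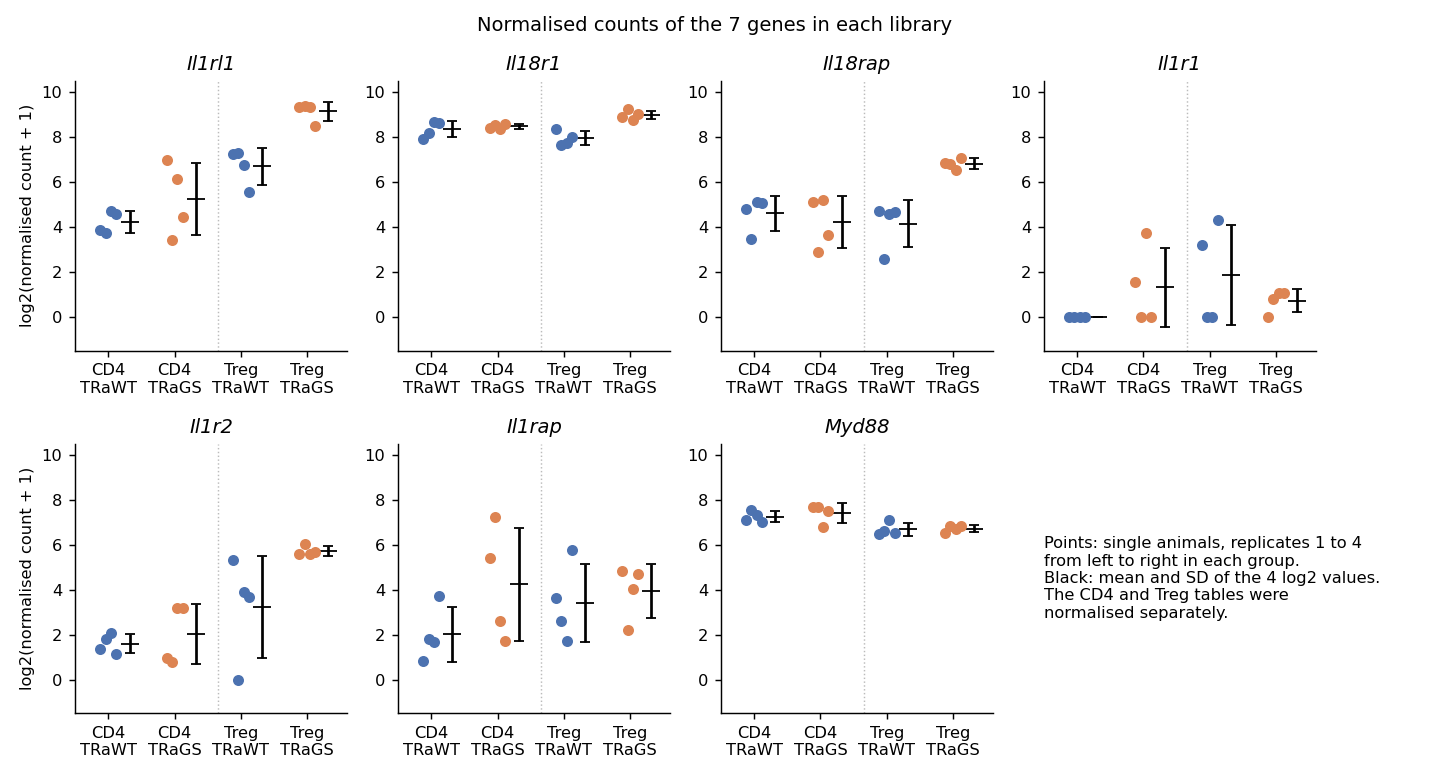
Normalised counts of the 7 genes on a log2(value + 1) axis in each library, with replicates 1 to 4 of each group from left to right and, in black, the mean and SD of the log2 values. In Treg the TRaGS points of Il1rl1 (362 to 677), Il18r1 (439 to 601), Il18rap (91.5 to 136) and Il1r2 (46.8 to 65.1) lie above all TRaWT points, and those of Myd88 do not.

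In CD4 cells no difference between genotypes in these genes passed the test. The choice of genes did not use this comparison, so it was tested. Of the 5 genes with enough reads, 0 were past the threshold in limma, 0 at an unadjusted p under 0.05, and 0 with edgeR or DESeq2 on recovered reads, where limma called 0.0575% of 10426 tested genes, edgeR 0.0288% and DESeq2 0.0959%, and 5.17% had an unadjusted p under 0.05. The median log2 difference of the 5 was 0.17, beside -0.01 over all tested genes. Il1rap was among the 5 only through its TRaGS libraries, with means of 4.42 normalised counts in TRaWT and 49.2 in TRaGS. No gene was without overlap between genotypes in CD4, where 3.16% of tested genes were in either direction and 1.43% with TRaGS higher.

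Il18r1 was the most even of them, at 241, 290, 405 and 393 normalised counts in TRaWT CD4 cells and 344, 376, 330 and 382 in TRaGS CD4 cells. All TRaGS values lay inside the TRaWT range. The means were 332 ± 79.6 and 358 ± 24.9 (SD, n = 4), and the log2 difference was 0.14 ± 0.34 (SE) with a 95% interval of -0.53 to 0.81 (limma adjusted p = 0.981).

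Il1rl1 was at 13.7, 12.5, 25.0 and 23.2 normalised counts in TRaWT CD4 cells and at 124, 9.90, 69.7 and 20.6 in TRaGS CD4 cells. TRaGS animals 1 and 3 were above every other CD4 library, and TRaGS animals 2 and 4 were within or below the TRaWT range. The log2 difference was 1.01 ± 1.05 (SE, 95% interval -1.05 to 3.08, limma adjusted p = 0.947), and with single libraries left out it ranged from 0.44 ± 1.15 (without TRaGS animal 1) to 1.61 ± 0.96 (without TRaGS animal 2). Foxp3 in the same libraries was at 113, 45.9, 50.1 and 115 in TRaWT and at 170, 43.1, 157 and 95.1 in TRaGS, so that the same 2 TRaGS libraries were highest for both genes. No other Treg identity gene read here had these 2 libraries as its highest. Ikzf2 (795) and Ctla4 (40.1) were highest in TRaGS animal 4, and Il2ra (139) and Capg (103) in TRaGS animal 3. Tnfrsf18 (264) and Ikzf4 (147) were highest in TRaWT animal 1, and Nrp1 (324) in TRaGS animal 2. In TRaGS animal 1, Ctla4 was at 12.7, Il2ra at 76.3 and Tnfrsf18 at 54.7. In that library Ikzf4 was at 75.3, Capg at 57.7, Nrp1 at 247 and Ikzf2 at 591. The part of Foxp3-positive cells in the CD4 values of Il1rl1 was not tested.

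Il18rap was at 26.6, 10.02, 33.8 and 32.9 normalised counts in TRaWT CD4 cells and at 34.2, 6.36, 35.9 and 11.5 in TRaGS CD4 cells, with full overlap. Its log2 difference was -0.40 ± 1.14 (SE, 95% interval -2.63 to 1.84, limma adjusted p = 0.985), and 0.05 without TRaGS animal 2. Il1rap was uneven, at 0.807, 2.51, 2.18 and 12.2 in TRaWT and at 41.1, 148, 5.13 and 2.29 in TRaGS, and 210 of its 275 CD4 reads came from TRaGS animal 2. Its log2 difference of 2.22 ± 1.36 (SE, 95% interval -0.45 to 4.90, limma adjusted p = 0.947) became 1.23 ± 1.37 without that library and 3.06 ± 1.48 without TRaGS animal 4.

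Myd88 was at 139, 188, 158 and 128 normalised counts in TRaWT CD4 cells and at 203, 206, 110 and 182 in TRaGS CD4 cells, with a log2 difference of 0.17 ± 0.46 (SE, 95% interval -0.74 to 1.07, limma adjusted p = 0.984). The low genes Il1r1 and Il1r2 were not tested in CD4. Il1r1 was at 0 in all TRaWT libraries, where a count of 0 allows 0.814 to 1.05 RPM (reads scaled to a library total of 1000000), depending on the library (a limit of 3 reads, for counting error only), and at 1.96, 0, 12.3 and 0 normalised counts in TRaGS. Il1r2 was at 1.61, 2.51, 3.27 and 1.22 in TRaWT and at 0.978, 0.707, 8.20 and 8.02 in TRaGS, from 26 reads in all.

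**Figure D2:**
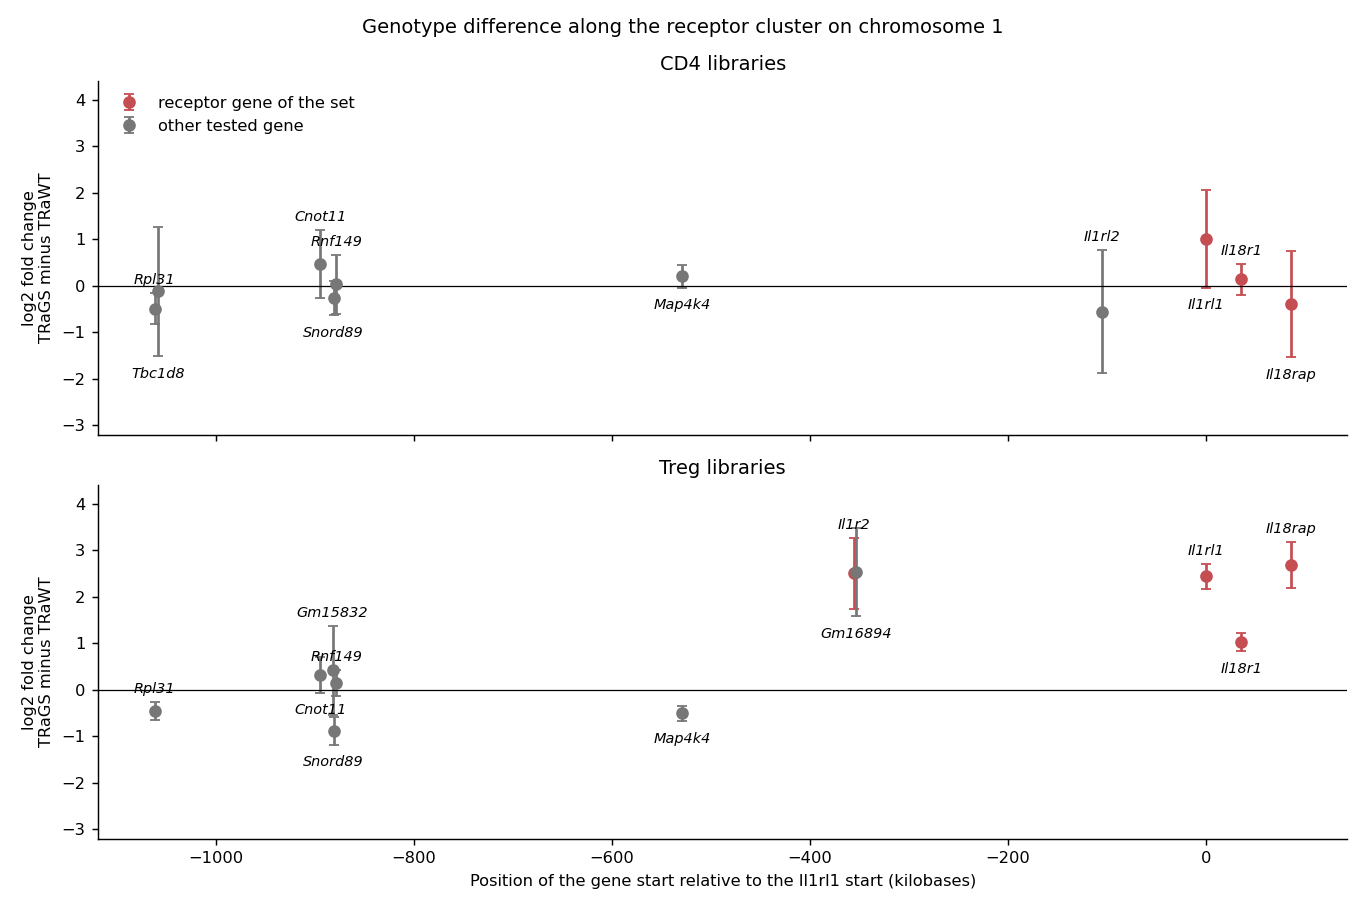
Log2 difference between genotypes (TRaGS minus TRaWT, ± SE) of the tested genes of the chromosome 1 region, plotted by the distance of their start from that of Il1rl1 in kb, for CD4 and Treg. In Treg, Il1rl1 (2.44), Il18r1 (1.03), Il18rap (2.68) and Il1r2 (2.51) stand above the flanking genes other than Gm16894 (2.53), which overlaps Il1r2, and in CD4 the error bars of Il1rl1, Il18r1 and Il18rap reach across 0.

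The same animals gave both fractions, so levels can be set side by side, in RPM because the 2 tables were normalised separately. These levels are a description, with no test across the tables. In TRaWT mice Il1rl1 was at 5.80 ± 1.77 RPM in CD4 and at 35.8 ± 17.6 in Treg, and in TRaGS mice at 17.1 ± 15.8 and 185 ± 51.8 (SD, n = 4). It was higher in the Treg library of all 4 animals of each genotype, 6.17 times by the means in TRaWT and 10.9 times in TRaGS. From low to high the order of the means was TRaWT CD4, TRaGS CD4, TRaWT Treg and TRaGS Treg. Only the TRaGS Treg libraries did not overlap those of the group before them in that order.

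The IL-18 receptor genes had another order. Il18r1 was at 104 ± 20.3 RPM in TRaWT CD4 and at 77.0 ± 18.4 in TRaWT Treg, and higher in Treg in 1 of 4 animals. In TRaGS mice it was at 108 ± 10.7 in CD4 and at 162 ± 28.2 in Treg, and higher in Treg in 4 of 4. Il18rap was at 8.07 ± 3.28 in TRaWT CD4 and at 5.87 ± 2.85 in TRaWT Treg, with no animal higher in Treg, and at 6.70 ± 4.64 and 35.9 ± 5.82 in TRaGS, with all 4 higher. For both genes the TRaWT Treg, TRaWT CD4 and TRaGS CD4 levels overlapped, and TRaGS Treg was the highest group.

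Il1r2 was low in CD4, at 0.685 ± 0.300 RPM in TRaWT and 1.40 ± 1.34 in TRaGS, and higher in Treg, at 4.88 ± 5.13 and 16.7 ± 3.38. It was higher in Treg in 3 of 4 TRaWT animals and in 4 of 4 TRaGS animals. Myd88 went the other way, at 48.6 ± 10.2 in TRaWT CD4 against 31.6 ± 6.42 in Treg and at 52.9 ± 13.0 against 33.1 ± 3.73 in TRaGS, with no animal of either genotype higher in Treg. Il1rap was at 1.32 ± 1.47 in CD4 and 5.22 ± 6.59 in Treg of TRaWT mice, higher in Treg in 4 of 4 animals, and at 14.0 ± 18.9 and 5.61 ± 3.41 in TRaGS mice, higher in Treg in 2 of 4. The group means of Il1r1 were between 0 and 1.97, with Treg higher in 2 of 4 animals of each genotype.

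Taken per animal, the Treg minus CD4 log2 difference of Il18rap was -0.06, -0.87, -0.51 and -0.40 in TRaWT and 1.71, 3.95, 1.33 and 3.46 in TRaGS. Every TRaWT animal was below 0 and every TRaGS animal above it. The genotypes differed in this value by 3.07 ± 0.73 (SE). For Il18r1 the per-animal values were 0.46, -0.51, -0.91 and -0.59 in TRaWT and 0.46, 0.68, 0.41 and 0.46 in TRaGS, a difference of 0.89 ± 0.39 that rested on TRaWT animals 2 to 4. For Il1rl1 they were 3.39, 3.53, 2.04 and 0.95 in TRaWT and 2.38, 5.96, 3.19 and 4.07 in TRaGS, which overlap, with a difference of 1.42 ± 0.97, from 0.74 (without TRaGS animal 2) to 1.93 with single animals left out. The difference was -0.13 ± 0.35 for Myd88. Across the 9914 genes fitted in limma for this difference of effects, 0% were past the threshold and 591 had an unadjusted p under 0.05 (edgeR and DESeq2 were not run for it).

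**Figure D3:**
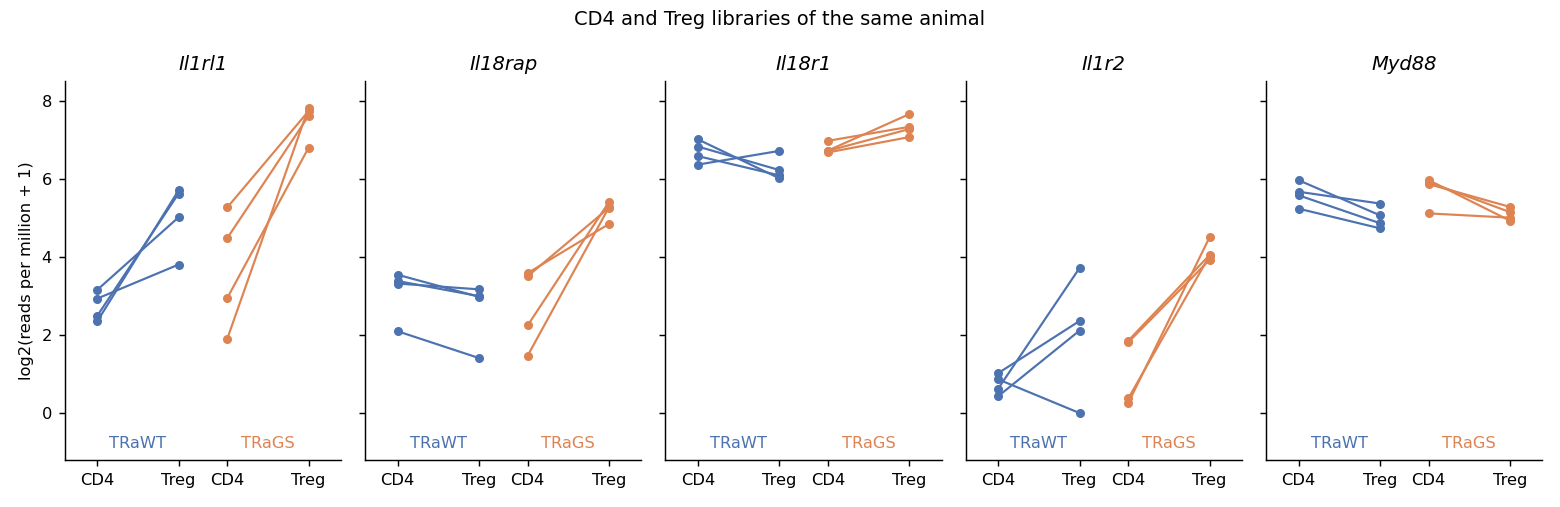
Log2(RPM + 1) in the CD4 and the Treg library of each animal, joined by a line per animal, for TRaWT and TRaGS. The lines of Il18rap fall or stay level in all 4 TRaWT animals and climb in all 4 TRaGS animals, those of Il1rl1 climb in all 8 animals, and those of Myd88 fall in all 8.

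Genes that were higher together between genotypes did not all vary together between animals. Within Treg, each library's deviation from its genotype mean had the same sign for Il1rl1 and Il18r1 in only 2 of 8 libraries (Pearson r = -0.05 across the 8 deviations) and for Il1rl1 and Il18rap in 4 of 8 (r = -0.47). Il18r1 and Il18rap, which encode the chains of one receptor, deviated the same way in 6 of 8 (r = 0.59), as did Il18rap and Il1r2 (r = 0.94) and Il18r1 and Il1r2 (r = 0.71). TRaWT animal 2, lowest for Il18r1, Il18rap and Il1r2 in its group, had an Il1rl1 value (155) level with the top of that group. The r of Il18rap and Il1r2 leans on this library. Its deviations were the largest of all 8, -1.56 for Il18rap (5 reads) and -3.22 for Il1r2 (0 reads). In TRaGS the deviations of Il18rap were 0.03, 0.002, -0.30 and 0.27, and those of Il1r2 -0.14, 0.31, -0.15 and -0.03. In CD4 cells, Il1rl1 and Il18rap deviated the same way in 7 of 8 libraries (r = 0.90), and Il1rl1 and Il18r1 in 4 of 8 (r = 0.04). These correlations describe 8 libraries of differing depth and are given without a test.

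No other gene of the region passed the threshold. In the cluster and within 1000 kb on either side of it, 39 other genes were in the tables and 7 were tested in each fraction. Of those tested, Gm16894 (Treg) and Il1rl2 (CD4) lie inside the cluster. In either fraction, 0 were past the threshold in limma, edgeR or DESeq2. At an unadjusted p under 0.05 there were 4 in Treg and 0 in CD4, where 9.12% and 5.17% of all tested genes were. In Treg 2 of the 7 were without overlap between genotypes, Rpl31 (-0.45) and Map4k4, both with TRaGS lower, and in CD4 none. Of all tested genes, 5.07% in Treg and 3.16% in CD4 were without overlap in either direction. In Treg their median log2 difference was 0.15, with a range of -0.89 to 2.53, and in CD4 it was -0.12, with a range of -0.55 to 0.47. The next tested gene before the cluster, Map4k4 (39900913 to 40026310), a kinase gene that ends 47.8 kb before Il1r2, was at 943 ± 76.1 normalised counts in TRaWT Treg and 678 ± 155 in TRaGS Treg (SD, n = 4), a log2 difference of -0.51 ± 0.16. No gene after Il18rap within the window had enough reads to be tested.

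The highest value among these neighbours, 2.53 ± 0.95, belonged to Gm16894 (40076228 to 40085851), an antisense gene that overlaps Il1r2, at 4.97 ± 5.21 and 23.3 ± 9.30 normalised counts. It reached the mean of 5 needed for a test only through its TRaGS libraries. The labels do not say whether the counting used strand, so its reads and those of Il1r2 may not be separate. Snord89, a small nucleolar RNA gene, was at 455 ± 178 and 276 ± 166, a log2 difference of -0.89 ± 0.29 that passed the threshold without TRaGS animal 1 or without TRaGS animal 4. Il1rl2, the IL-36 receptor gene that lies between Il1r1 and Il1rl1, was too low in Treg to be tested, at 2.75 ± 1.98 and 1.92 ± 2.26.

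The rest of the pathway was described by 7 lists of genes, of which 85 tested genes in Treg included 11 that rose in TRaGS and 0 that fell in limma (adjusted over all genes), where 0.733% of all tested genes were called higher. Of the 11, 10 came from the 2 lists of genes linked to ST2-positive and to IL-18 receptor-positive T cells, and 1 from the 51 tested genes of the ligand, receptor, MyD88, NF-kB and Toll-like receptor lists. The median log2 difference of all 85 was 0.20, beside 0.01 over all tested genes. The lists were drawn up with results of these data known. Calls and p-values of their genes in Treg are therefore a description and no independent test. With TRaGS animals 1 and 2 alone, 4 passed (Rora, Klrg1, Maf and Nrp1), and without TRaGS animal 3 or 4, 7 passed. In CD4, 0 of 81 tested genes passed in limma, edgeR or DESeq2, with 4 at an unadjusted p under 0.05 and a median of -0.09. Over all tested genes in CD4, 5.17% had an unadjusted p under 0.05.

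The cytokines that these receptors bind were scarcely read in either fraction. Of 11 ligand and soluble inhibitor genes, 7 were in the tables and only Il18, at 5.57 ± 5.91 and 18.9 ± 14.4 normalised counts in TRaWT and TRaGS, was tested in Treg (log2 difference 1.79 ± 1.05, limma adjusted p = 0.648). Among the other receptor genes of the family, Sigirr, which encodes an inhibitory member, was at 125 ± 34.5 and 86.9 ± 3.91 in Treg (-0.48 ± 0.31, limma adjusted p = 0.693).

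The MyD88 signalling list also holds genes that are not steps behind Myd88. Of its 25 tested genes, 1 rose in TRaGS Treg, where 0.733% of all tested genes were called higher. None fell, and the median was -0.16. The gene that rose was Casp1, whose protease matures IL-18 and IL-1 beta, from 36.2, 47.3, 24.5 and 25.8 normalised counts to 84.7, 148, 125 and 136. The genotypes did not overlap, and the log2 difference was 1.87 ± 0.39 (SE, limma adjusted p = 0.00608). The kinase gene Irak1 was at 271 ± 58.3 and 230 ± 24.3, Irak4 at 178 ± 28.9 and 153 ± 37.6, and the ubiquitin ligase gene Traf6 at 116 ± 38.3 and 75.6 ± 20.03, none past the threshold (these 3 were chosen after their values were seen).

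Of 20 genes of NF-kB subunits, kinases and feedback inhibitors, 0 passed in Treg with limma, and the median log2 difference was -0.02. At an unadjusted p under 0.05 there was 1, where 9.12% of all tested genes were. Nfkbia, an inhibitor that NF-kB itself induces, was at 2249 ± 573 and 2345 ± 234 normalised counts, and Tnip1, another feedback inhibitor, at 835 ± 155 and 807 ± 233. Of the Toll-like receptor genes, which also signal through Myd88, 0 of 4 passed in Treg with limma (0 unadjusted), with Tlr1 at 70.3 ± 13.0 and 53.8 ± 13.5 and Tlr7 at 46.5 ± 22.4 and 24.3 ± 10.2.

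Genes that the literature links to ST2-positive tissue Treg were a different case. Of 22 tested in Treg, 20 had a positive difference, and the median log2 difference was 0.82, beside 0.01 over all tested genes. In TRaGS Treg 9 rose and 0 fell, where 0.733% of all tested genes were called higher and 0.226% lower. They include the transcription factor genes Gata3, Rora, Prdm1 and Maf, the surface receptor genes Klrg1, Ccr4 and Nrp1, the integrin gene Itgae and the costimulator gene Icos. The list was drawn up with results of these data known and uses the same libraries as the receptors, so it gives them no independent support. In CD4, 0 of its 17 tested genes passed in limma (1 at an unadjusted p under 0.05), and the median was -0.12.

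Gata3, a known regulator of Il1rl1, was at 947, 673, 973 and 971 normalised counts in TRaWT Treg and at 1256, 1273, 1747 and 1396 in TRaGS Treg. All TRaGS libraries were higher, by less than for Il1rl1: the log2 difference was 0.67 ± 0.15 (SE, limma adjusted p = 0.0115). Klrg1, an inhibitory receptor gene of mature Treg, was at 346, 228, 239 and 176 and at 669, 830, 697 and 543, without overlap. Its log2 difference was 1.49 ± 0.20, that of Prdm1 1.62 ± 0.33, that of Ccr4 1.46 ± 0.36 and that of Itgae 1.38 ± 0.33.

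Among 12 tested genes linked to IL-18 receptor-positive and Th1-like T cells, the median log2 difference in Treg was 0.71. Where 0.733% of all tested genes were called higher in TRaGS Treg, 0 of the 12 fell and 1 rose. It was Cxcr3, a chemokine receptor gene of Th1 cells, at 37.8, 50.3, 54.8 and 69.3 normalised counts in TRaWT and 96.3, 148, 189 and 138 in TRaGS (1.40 ± 0.34, limma adjusted p = 0.0229). Tbx21, the defining factor gene of Th1 cells, was at 16.5 ± 6.58 and 39.2 ± 27.5 (1.10 ± 0.65, limma adjusted p = 0.648). In CD4, 0 of 12 passed in limma (1 at an unadjusted p under 0.05), and the median was -0.23.

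**Figure D4:**
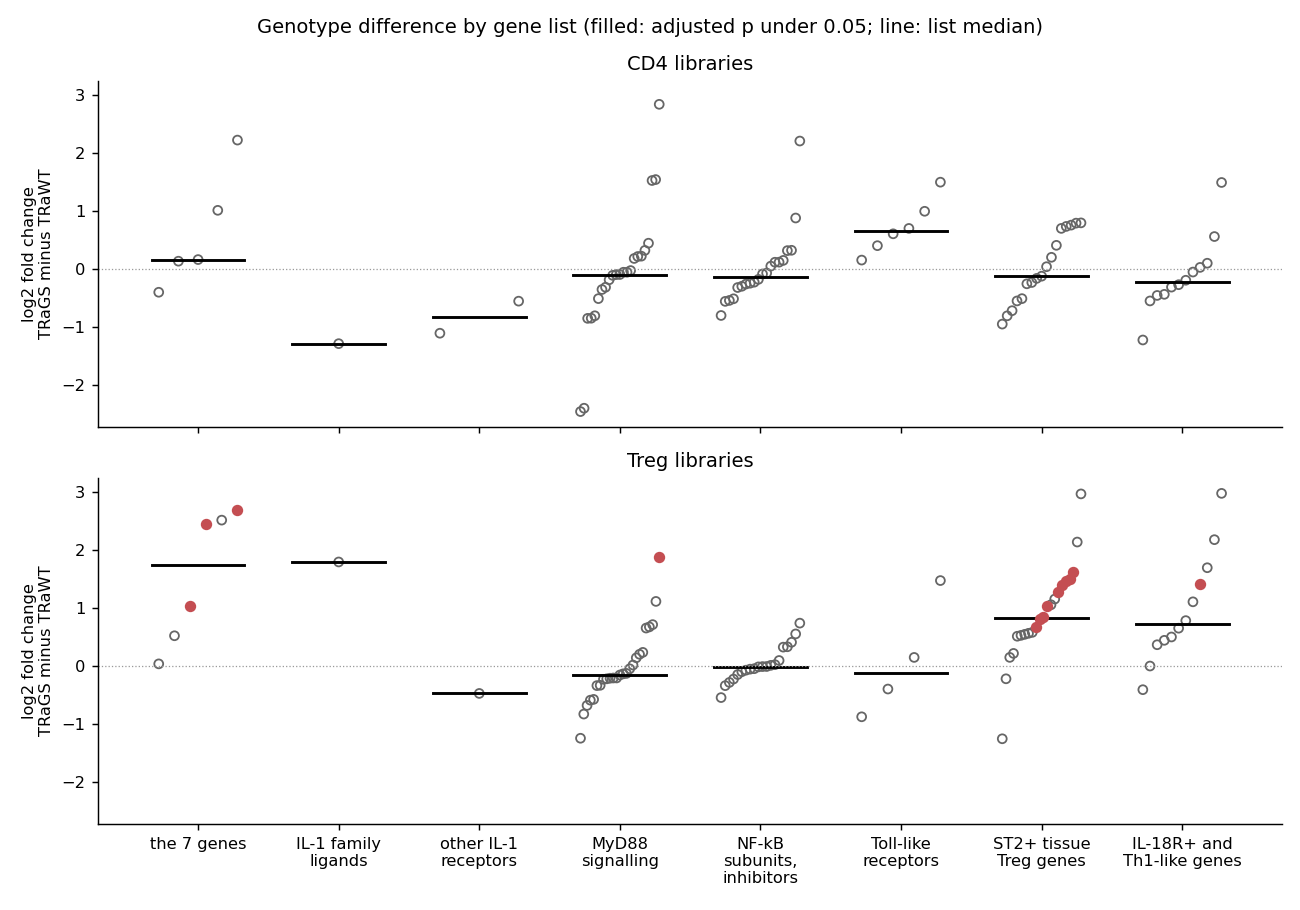
Log2 difference between genotypes of every tested gene of the 7 pathway lists, in CD4 and in Treg, with filled points for adjusted p under 0.05 and a line at each list's median. In Treg the list linked to ST2-positive tissue Treg holds 9 filled points and a median of 0.82, while the NF-kB list holds none and has a median of -0.02.

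The genes whose Treg values were most like those of Il1rl1 were Selenot (Pearson r = 0.970 over 8 libraries), Klrg1 (0.969), Ttc39c (0.965), Gorab (0.951) and Itgae (0.945). Its own neighbour Il18r1 came at rank 171 (0.821) and Il18rap at rank 439 (0.728). For Il18r1 the most alike were Epb41l4a (0.985), Samsn1, Smarca5, Ptpn3 and Tacc1, with Il18rap at rank 28 (0.927). For Il18rap they were Rora (0.973), Zfp54, Itga2, Rab11fip1 and Nol4l, with Il18r1 at rank 23 and Il1r2 at rank 35 (0.906). These values include the difference between genotypes that chose the genes. With the genotype means taken off, the closest were Natd1 (0.991), Dclre1b, Rbmx, Eaf1 and Tmc8 for Il1rl1, Insig2 (0.977), Smarca5, Ghitm, Ern1 and Oxct1 for Il18r1, and Pibf1 (0.980), Ddx51, Cep164, Tpm3-rs7 and Rsbn1l for Il18rap. Il1r2 came at rank 22 for Il18rap (0.935), a value that leans on TRaWT animal 2, with few or no reads of both genes.

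Other cells of the spleen carry these receptors, so their markers were read in the same Treg libraries. Of 6 genes of type 2 innate lymphoid cells, which carry ST2, Il5 was at 0 in all 8 libraries, and the summed level was 3.78 to 27.2 RPM in TRaWT and 17.5 to 44.3 in TRaGS. Of 10 genes of mast cells and basophils, which also carry ST2, 7 were at 0 in all 8 libraries (Cpa3, Fcer1a, Mcpt8, Mcpt4, Tpsb2, Gata2 and Prss34), and the sum was 0 to 8.29 and 0.337 to 14.4. Kit, the highest of them, had means of 7.88 and 14.5 normalised counts. Of 9 neutrophil genes, whose cells carry Il1r2, 6 were at 0 in all 8 (Ly6g, Csf3r, Cxcr2, Retnlg, Elane and Mpo), and the sum was 0.257 to 5.15 and 0.241 to 12.9. The 8 NK cell genes, whose cells carry the IL-18 receptor, summed to 3.64 to 12.7 and 4.04 to 10.6, with Klra8 at 0.

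Markers of the cells in the Treg fraction were read too. The 8 Treg identity genes summed to 2360 to 3019 RPM in TRaWT Treg and 3206 to 3679 in TRaGS Treg, without overlap, with 2 of 8 past the threshold, both higher (Ikzf2, with means of 3751 and 5466 normalised counts, and Nrp1, with 840 and 1472). The other Treg identity genes did not pass: Foxp3 was level, with means of 1165 and 1156, while the means of Il2ra (1500 and 1141), Ikzf4 (716 and 648) and Capg (213 and 204) were lower in TRaGS and those of Ctla4 (243 and 266) and Tnfrsf18 (518 and 765) higher. The 7 naive T cell genes summed to 2074 to 2417 and 1697 to 2143, with 2 past it, both lower (Satb1 and Igfbp4). The 11 B and plasma cell genes summed to 286 to 426 and 520 to 696, also without overlap, with 1 past it (Ighm). Most of this sum was Ighm, with means of 945 and 1510 normalised counts, so its lack of overlap does not speak for the whole list. Igkc, the next highest by mean, was at 43.4 and 143, with overlap between the genotypes. Over all tested genes in Treg, 0.733% were called higher and 0.226% lower. The part of the marker differences in the receptor values was not tested.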

How the data were processed

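RNA from CD25- and CD25+ CD4+ spleen cells was made into 3′ tag libraries, per the labels' protocols. The authors deposited 1 table of normalised counts per fraction on GRCm38 (per the submitters' processing notes), a signal unit: read counts divided by a factor per library. The aligner and counter are not given in the sources used. Each library's values were whole multiples of 1 step (100%, tolerance 0.001), which gave back reads and depth. Reads without molecular identifiers may be copies of 1 molecule.

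Symbols and coordinates came from GENCODE release 21. Genes with a mean of at least 5 in a fraction entered limma 3.58.1 (R 4.3.3) as log2 of the value plus 1 with its trended variance. P-values were Benjamini-Hochberg adjusted (threshold 0.05) over all genes of that fraction. This scale can understate changes of low genes and can also give larger ones than the count models. Il1r2 in Treg was at 2.51 on it, against 1.69 with DESeq2 and 1.68 with edgeR. Prior degrees of freedom were infinite in CD4, so a CD4 SE is that of genes at the same level, and 36.8 in Treg. The difference of effects used each animal's Treg minus CD4 log2 value. edgeR 4.0.16 called 3 genes in CD4 and 90 in Treg on recovered reads, and DESeq2 1.42.0 called 10 and 138. The fits were tested on simulated data.

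The members and lists were chosen with earlier results of these data known. Named beyond the 7 genes were up to 4 called genes of each list by size (2 of highest mean where none was called), Gata3, the flanking genes and the 5 closest in pattern. Alternatives were other pseudocounts (0.5 and 5), filters (none and 20), upper-quartile scaling, edgeR, DESeq2, the replicate number as a block, and libraries left out. Levels without the reads of Gm42418 were added after seeing the data. Figures used matplotlib 3.10.9.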

Additional observations from a re-analysis of the deposited data

Results flagged for a closer look

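Within groups of 4 libraries, a highest or lowest value was set apart when its gap to the nearest other exceeded Dixon's critical share of the group's range at 95%, which chance does in about 1 in 20 groups. Of 27 groups of these genes, 4 had such a library. Il1rl1 in TRaGS Treg was at 362 normalised counts in animal 4, where the others were at 642 to 677. Il18rap in TRaWT Treg was at 5.03 in animal 2, where the others were at 23.3 to 25.5. Il1r1 in TRaGS CD4 cells was at 12.3 in animal 3, where the others were at 0 to 1.96. Il1rap in TRaWT CD4 cells was at 12.2 in animal 4, where the others were at 0.807 to 2.51.

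The Treg minus CD4 log2 difference of Il18rap lay below 0 in every TRaWT animal and above 0 in every TRaGS animal, and the genotypes differed in it by 3.07. In the limma fit over all genes this difference of effects was not past the threshold (0 of 9914 genes were), nor was it in any of 14 alternatives, over which it ranged from 2.63 to 3.50.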

How the results depend on the processing

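Of the 7 genes, 3 were past the threshold in Treg, and 2 to 4 over 17 alternatives: 2 with TRaGS animals 1 and 2 alone (without Il18rap) and 4 without TRaWT animal 1 (with Il1r2). Il1rl1 and Il18r1 passed in all 17. The choice of genes used this Treg contrast, so these Treg counts are a description and give no support. None of the 7 genes passed in CD4 in 17 alternatives or in the difference of effects in 14. The pathway genes past the threshold in Treg, 11 in all, were 4 with TRaGS animals 1 and 2 alone and 7 to 11 with each library left out. The neighbours past it in Treg, 0 in all, were 0 to 1 with each library left out.

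Some differences near 0 turned sign when a library was left out. In CD4, Il18r1 ranged from -0.00516 (without TRaWT animal 1) to 0.243 and Il18rap from -0.782 to 0.0469 (without TRaGS animal 2). In Treg, Il1rap ranged from -0.0481 (without TRaWT animal 3) to 1.29 and Myd88 from -0.0304 to 0.170, below 0 without TRaGS animal 2 or 4 or TRaWT animal 1 or 4. Myd88 was at -0.0113 with TRaGS animals 1 and 2 alone. Its difference of effects ranged from -0.334 to 0.0209 (without TRaGS animal 1). The cause was not tested.

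Replicate numbers did not pair the genotypes (correlations of same-numbered deviations were -0.02 to 0.05, and not every library was closest to its own number). With the replicate number as a block, 3 of the 7 genes passed in Treg, 12 pathway genes passed and 1 neighbour passed (Snord89). Upper-quartile scaling moved the median CD4 difference of all genes from -0.01 to -0.11. Il1rap had no value in Treg with a mean of at least 20. Low counts limit Il1r1, Il1r2 and Il1rap, and 4 animals per genotype limit every comparison.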
